A study of Mus musculus with 8 samples.

Results

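Isl1, the Eya coactivators and the Six-family homeodomain factors were followed by name in bulk RNA-seq of the outflow tract (OFT), the vessel that carries blood out of the embryonic heart. The rule named 7 genes, Isl1, Eya1, Eya2, Eya3, Eya4, Six2 and Six4. Of these, 6 were rows of the table of 14608 genes, and Eya2 was not listed. The set was chosen by its fold changes and calls between the groups of these same libraries, so the levels and fold changes given for it are a description and were not tested.

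The 8 libraries came from mouse OFT at embryonic day 11.5 (E11.5), 4 of the genotype labelled Control and 4 labelled Mib1V943F/+ Gata6STOP/+. The mutant carried 1 copy of a missense allele of Mib1, which encodes a ubiquitin ligase for Notch ligands, and 1 copy of a Gata6 allele with a premature stop, a null allele of a cardiac GATA transcription factor. The labels give neither the genotype of the controls beyond that word nor any single mutant among these samples, so the contributions of the 2 alleles cannot be told apart. The text of the series gives 4 libraries per genotype, each pooled from 3 individuals, whereas the methods of the study describe 3 pools per genotype, each holding 4 pairs of OFTs. Both number and size of the pools are thus uncertain, and single embryos are averaged within a library. Values were CPM (read counts scaled to library size) as deposited, and the reads on listed genes ran from 10669420 in control replicate 2 to 30469165 in mutant-labelled replicate 3. Gata6 RNA did not separate the groups, with 236, 279, 271 and 261 CPM in control-labelled replicates 1 to 4 and 213, 284, 276 and 224 CPM in mutant-labelled replicates 1 to 4, and neither did Mib1 RNA (107 to 138 CPM against 123 to 137 CPM). Gata6 had a log2 fold change of -0.08 (SE 0.10, 95% interval -0.29 to 0.14), an interval that does not reach a loss of the RNA of 1 of 2 copies. The values are per gene and not per allele, so they neither bear out nor refute the Gata6 genotype. The groups are called by their labels.

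Isl1 is a LIM-homeodomain transcription factor that marks cardiac progenitors of the second heart field, the mesoderm behind the heart that is added to the OFT as it lengthens. Progenitors lower Isl1 as they differentiate into myocardium and smooth muscle, and the gene is also used by neurons and pharyngeal cells. Six-family proteins bind DNA through a homeodomain, while Eya proteins have no DNA-binding domain of that kind and act as coactivators and phosphatases that their Six-family partners carry into the nucleus. The Six-Eya pair works in second heart field, pharyngeal, muscle and kidney progenitors, often beside Pax and Dach proteins.

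Because the mutant carries an allele of a GATA factor, the 250 bases before the RefSeq transcription start were searched for letters that GATA proteins are known to bind, AGATAA or TGATAA on either strand. RefSeq gave such windows for 5 of the 6 listed genes (build GRCm38.p6), all but Eya1. The letters occurred in the windows of Isl1 and Six2 and in 16.6% of the 32851 windows of all genes. They are shown here in capitals, on the strand of the gene, for chr13:116309689-116309938 (Isl1, minus strand, 1 base of it in an annotated exon) and chr17:85688255-85688504 (Six2, minus strand, 20 bases in an annotated exon).
Isl1: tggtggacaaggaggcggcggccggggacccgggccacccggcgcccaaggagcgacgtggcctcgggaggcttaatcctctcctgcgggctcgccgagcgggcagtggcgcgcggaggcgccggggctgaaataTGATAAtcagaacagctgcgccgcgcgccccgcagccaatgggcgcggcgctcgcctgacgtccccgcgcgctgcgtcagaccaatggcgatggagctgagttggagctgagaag
Six2: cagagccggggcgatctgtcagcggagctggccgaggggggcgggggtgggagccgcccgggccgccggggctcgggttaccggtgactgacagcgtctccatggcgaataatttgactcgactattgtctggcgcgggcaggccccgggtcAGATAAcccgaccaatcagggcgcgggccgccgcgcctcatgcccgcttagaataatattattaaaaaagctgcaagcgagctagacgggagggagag
In the Isl1 window the match lay 115 to 110 bases before the start, and in the Six2 window 98 to 93 bases before it. The second search used TCAGGTTTC, the MEF3 letters that Six-family proteins are known to bind, also on both strands. It matched 1 window of the set, that of Six4, and 0.387% of all windows. The Six4 match is on the opposite strand to the gene, inside an annotated exon, at chr12:73113325-73113354 (minus strand, matched letters in capitals).
Six4: tggcctggggGAAACCTGAtcggccagatc
No match overlapped a match to the other motif. These are matches of letters, and binding was not measured in these samples.

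Isl1 (ENSMUSG00000042258, chr13:116298281-116309689, minus strand, GRCm38) was higher in every mutant-labelled library than in any control-labelled one. Control-labelled replicates 1 to 4 held 25.7, 26.8, 33.0 and 31.1 CPM of Isl1, and mutant-labelled replicates 1 to 4 held 59.2, 40.7, 43.4 and 41.4 CPM. The groups did not overlap. The highest value, in mutant-labelled replicate 1, was 1.37 times the next highest library, and the other 3 mutant-labelled libraries lay close together at 41.8 ± 1.39 CPM (SD, n = 3). On the log2(CPM + 0.5) scale Isl1 had a log2 fold change of 0.64 (SE 0.12, 95% interval 0.37 to 0.91, n = 4 per group), and without mutant-labelled replicate 1 it was 0.52 (0.30 to 0.74). Behind these values stood 283 to 1334 reads per library, and the median ratio between the groups was 1.46.

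Among the Eya coactivators, Eya4 was higher, and Eya1 and Eya3 overlapped between the groups. Eya4 (ENSMUSG00000010461, chr10:23102963-23350786, minus strand) is known for its role in hearing and in heart muscle. Its values were 10.8, 6.16, 8.35 and 11.99 CPM in control-labelled replicates 1 to 4, and 19.7, 18.0, 15.8 and 13.97 CPM in mutant-labelled replicates 1 to 4. The lowest mutant-labelled library was thus above the highest control-labelled one, with no overlap. The log2 fold change of Eya4 was 0.85 (SE 0.18, 95% interval 0.46 to 1.25), and without mutant-labelled replicate 1 it was 0.77 (0.35 to 1.2). Control replicate 2, the library with the fewest reads, held the lowest Eya4 value, from 65 reads.

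Eya3 (ENSMUSG00000028886, chr4:132638987-132724765, plus strand) was the most even gene of the set. Its control-labelled values were 64.8, 61.1, 63.6 and 64.4 CPM, and its mutant-labelled values 61.9, 53.5, 63.9 and 64.3 CPM. The ranges overlapped, and mutant-labelled replicate 2 was the lowest of all 8 libraries. The log2 fold change of Eya3 was -0.06 (SE 0.07), and its 95% interval, -0.22 to 0.10, did not reach the values of Isl1 or Eya4.

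Eya1 (ENSMUSG00000025932, chr1:14168954-14310235, minus strand), the family member best known from ear, kidney and pharyngeal development, was close to the lower limit of the table. Control-labelled replicates 1 to 4 held 1.59, 1.52, 1.37 and 2.62 CPM, and mutant-labelled replicates 1 to 4 held 4.34, 1.21, 1.79 and 2.06 CPM, from 16 to 93 reads. Mutant-labelled replicate 1 was the highest and mutant-labelled replicate 2 the lowest of the 8, so that the mutant-labelled range enclosed the control-labelled one. The log2 fold change of Eya1 was 0.25 (SE 0.29, 95% interval -0.39 to 0.88) and turned to -0.05 (-0.56 to 0.47) without mutant-labelled replicate 1. Both intervals held 0, so no direction can be given for Eya1.

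Of the Six-family factors, Six2 (ENSMUSG00000024134, chr17:85684277-85688274, minus strand) gave the largest fold change of the set, and 1 library carried most of it. Six2 keeps progenitors of the kidney and of the craniofacial skeleton undifferentiated. Six2 gave 2.88, 1.14, 2.34 and 2.24 CPM in control-labelled replicates 1 to 4, and 17.7, 2.94, 2.80 and 2.13 CPM in mutant-labelled replicates 1 to 4. Mutant-labelled replicate 1 held 379 Six2 reads, against 12 to 86 in the other 7 libraries, and was 6.01 times the next highest library. The other 3 mutant-labelled values overlapped with the control-labelled range or lay just above it. The log2 fold change of Six2 was 0.91 (SE 0.50, 95% interval -0.17 to 2.0), and without mutant-labelled replicate 1 it was 0.28 (SE 0.25, -0.26 to 0.82).

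Six4 (ENSMUSG00000034460, chr12:73099609-73113456, minus strand), which acts in muscle progenitors, overlapped between the groups. The control-labelled values were 12.4, 7.68, 7.34 and 11.1 CPM, and the mutant-labelled values 13.5, 11.5, 10.7 and 11.4 CPM. Control replicates 2 and 3 were low, while control replicates 1 and 4 lay within the mutant-labelled range. The log2 fold change of Six4 was 0.30 (SE 0.16, 95% interval -0.05 to 0.65).

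**Figure D1:**
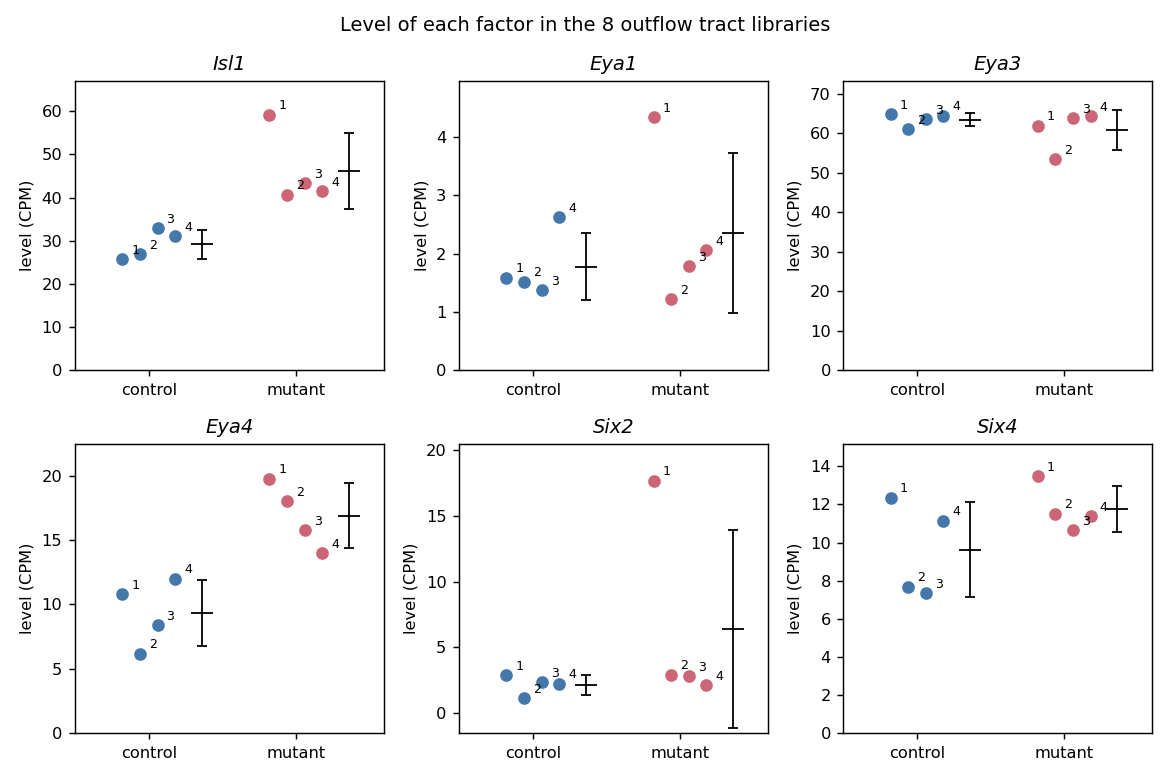
Level in CPM (y axis, 1 scale per gene) of the 6 listed genes in the 4 control-labelled (blue) and 4 mutant-labelled (red) libraries. Each point is a library with its replicate number, and the black mark with bar is the group mean ± SD. The groups are apart for Isl1 and Eya4, and mutant-labelled replicate 1 is alone at 17.7 CPM for Six2.

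**Figure D2:**
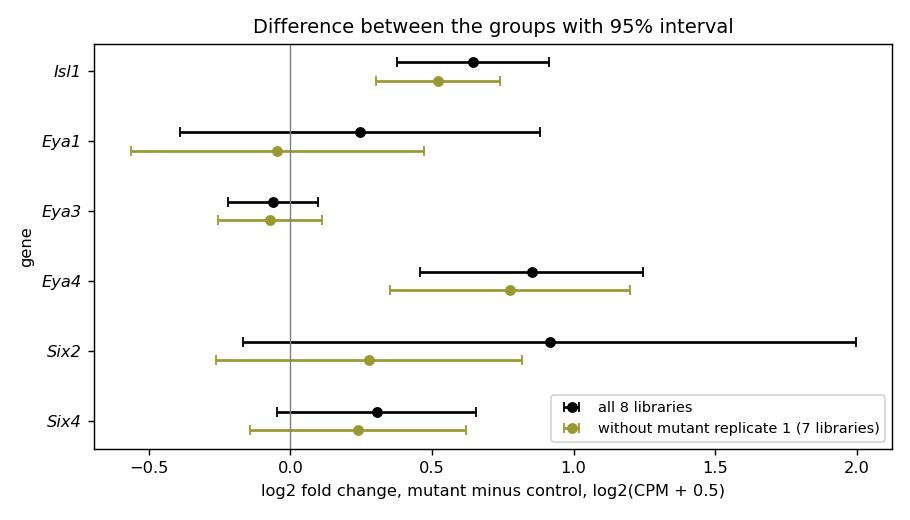
Log2 fold change, mutant-labelled minus control-labelled, on the log2(CPM + 0.5) scale (x axis) of each gene (y axis), with 95% intervals, from all 8 libraries (black) and without mutant-labelled replicate 1 (olive). The Six2 value moves from 0.91 to 0.28 and the Eya1 value from 0.25 to -0.05, while Isl1 and Eya4 stay above 0.

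Counted over the set, 5 of the 6 genes had a fold change above 0 and 1 below, with a median log2 fold change of 0.47 beside 0.00 over all 14608 genes. Of the 6, 2 (Isl1 and Eya4) were higher with no overlap between the groups, beside 3.2% of all genes (a further 3.9% were lower without overlap, 7.1% in either direction). With limma, 0 of the 6 had an adjusted p under 0.05 (0% of all genes), while 2 had an unadjusted p under 0.05 (at that level 5.45% of all genes were higher and 6.62% lower, 12.1% together). The likelihood ratio test of edgeR, run on whole reads recovered from the CPM values, called 2 of the 6 higher (0.178% of all genes, with 0.554% lower and 0.732% in either direction), DESeq2 also called 2 higher (0.315% of all genes, with 0.999% lower and 1.31% in either direction), and the quasi-likelihood test of edgeR called 0 (0%). Each time the 2 genes were Isl1 and Eya4. DESeq2 gave no adjusted p for Eya1 or Six2. Its shares are over all 14608 genes, those without an adjusted p included. These counts follow from how the genes were chosen and carry no weight of their own.

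Per kb of exon, Eya3 and Isl1 stood well above the rest. The length is that of all annotated exons of a gene joined, not of the transcripts present in these samples. Orders between genes depend on that length, which the spread between libraries does not measure. In the control-labelled libraries the order of levels was Eya3 with 11.2 ± 0.296 CPM per kb (SD, n = 4), Isl1 with 7.36 ± 0.868, Six2 with 1.01 ± 0.345, Eya4 with 0.989 ± 0.275, Six4 with 0.887 ± 0.230 and Eya1 with 0.227 ± 0.0732. The ranges of Six2, Eya4 and Six4 overlapped, so these neighbours did not differ beyond their spread, whereas those of Eya3, Isl1 and Eya1 overlapped with no other gene. In the mutant-labelled libraries Isl1, at 11.7 ± 2.22 CPM per kb, lay level with Eya3, at 10.8 ± 0.893, and their ranges overlapped (10.3 to 14.96 and 9.47 to 11.4). Eya4, at 1.79 ± 0.268 CPM per kb, was above Six4, at 1.08 ± 0.112, with no overlap of their ranges. The Six2 level per kb ranged from 1.01 to 8.35 among the mutant-labelled libraries, with mutant-labelled replicate 1 alone at the upper end. The other mutant-labelled libraries lay below the Eya4 range for Six2.

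**Figure D3:**
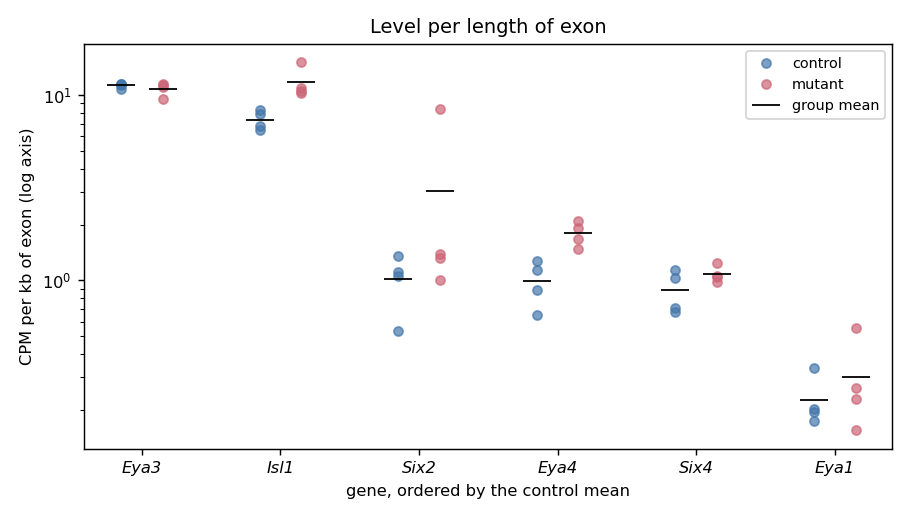
CPM per kb of annotated exon (y axis, log scale) for each gene (x axis, ordered by the control-labelled mean). Points are libraries, blue for control-labelled and red for mutant-labelled, and black lines are group means. Isl1 reaches the level of Eya3 in the mutant-labelled libraries, at 11.7 and 10.8 CPM per kb.

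Within the groups, the genes did not vary as 1 block. After each group's mean was subtracted from log2(CPM + 0.5), Eya4 and Six4 had a Pearson r of 0.81 over the 8 libraries, and 0.78 without mutant-labelled replicate 1. Both are Six-Eya genes that were low in control replicates 2 and 3. Isl1 had an r of 0.80 with Six2 and 0.75 with Eya1, and these fell to 0.16 and 0.23 without mutant-labelled replicate 1. Those relations thus rested on that library. Eya4 and Six2 went the other way, from an r of 0.60 to 0.84 without it. Eya3 had an r of 0.03 with Eya4 and 0.23 with Isl1. The points share libraries and depth, and the values are descriptions over 8 libraries.

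Other genes deviated like single members of the set. Genes were compared where their mean reached 2 CPM, which left 13259, and those most like Isl1 by the same measure were Cyren (r = 0.95), Cacna1g (r = 0.95), which encodes a calcium channel subunit, and Ints9 (r = 0.94), an Integrator subunit. Isl2, the closest relative of Isl1, was the next, with an r of 0.94. Its values were 1.44, 1.23, 1.77 and 1.97 CPM in control-labelled replicates 1 to 4, and 4.62, 1.66, 2.18 and 1.79 CPM in mutant-labelled replicates 1 to 4. Like Isl1, it was highest in mutant-labelled replicate 1, and its r was not computed without that library. The genes most like Eya4 were Cul2 (r = 0.98), a cullin, Eno1b (r = 0.98) and Magi1 (r = 0.97), a scaffold of cell junctions. Those most like Six2 were Camkmt (r = 0.96), Irx1 (r = 0.96), an Iroquois homeobox factor, and Ccne1 (r = 0.94), which encodes cyclin E. Camkmt lies 226 kb from Six2. Each r is among the highest of 13259 genes over only 8 libraries, where high values can arise without any relation. No r of this paragraph was computed without mutant-labelled replicate 1, so the part of that library was not tested.

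Six2 was among the genes that were far higher in mutant-labelled replicate 1 than in any other library. In that library 18 genes were over 2 times the highest of the other 7 libraries, against 0 to 12 genes in each of the others. At over 1.5 times it did not lead, with 64 genes against 87 in mutant-labelled replicate 2 and 85 in control replicate 2. Six2 had rank 3 by this ratio. Irx1 was first, at 38.5 CPM against at most 5.48 elsewhere (7.03 times), and Gli1, a transcription factor and target of hedgehog signalling, was second, at 27.2 CPM against at most 4.09 (6.65 times). The next genes were Irx2 (3.38 times the highest other library), the endothelin ligand Edn3 (3.11), Mycl of the Myc family (2.97), the Wnt enhancer Rspo2 (2.84), the tight junction gene Cldn11 (2.56), Scara5 (2.35), Pklr (2.26) and Lix1 (2.25). Isl2 was at 2.12 times, Eya1 at 1.66 times (rank 42) and Isl1 at 1.37 times (rank 104), while Eya4 (1.1), Six4 (1.09) and Eya3 (0.956) were near or below the highest other library. Ptch1, the hedgehog receptor and another target of that pathway, was added after its values were seen and held 73.7 CPM in mutant-labelled replicate 1 against 41.5 to 46.6 CPM elsewhere.

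**Figure D4:**
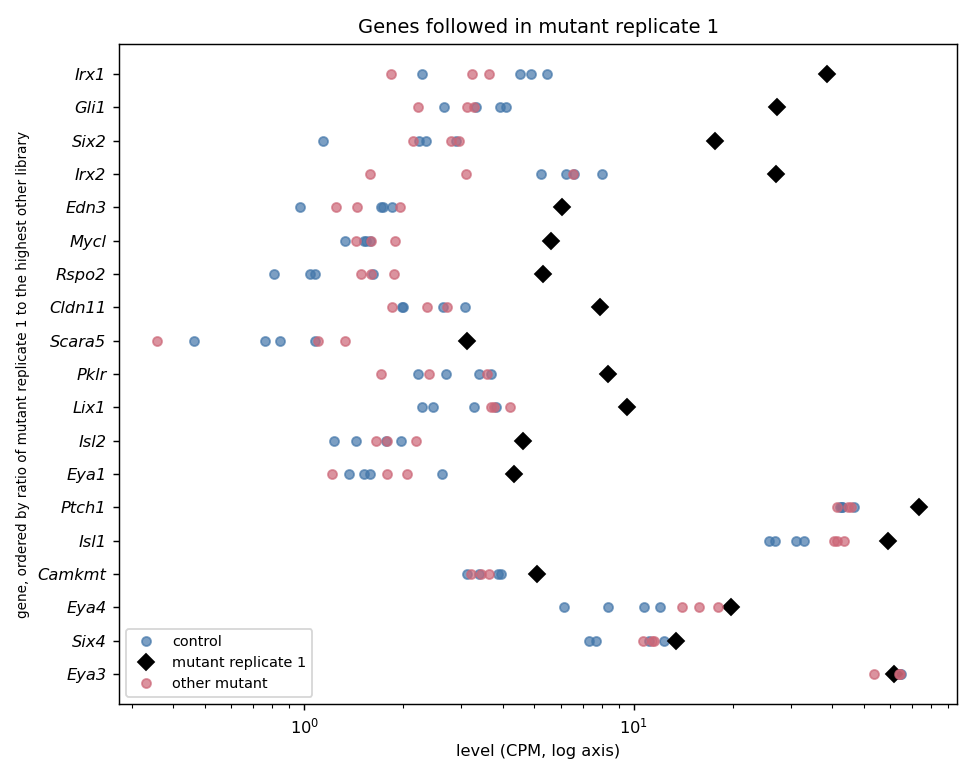
Level in CPM (x axis, log scale) of the genes with the largest ratio of mutant-labelled replicate 1 (black diamonds) to the highest other library, together with the listed set, Isl2, Ptch1 and Camkmt (y axis, ordered by that ratio). Blue points are control-labelled and red points the other mutant-labelled libraries. The diamonds of Irx1, Gli1 and Six2 are at 7.03, 6.65 and 6.01 times the next library.

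The genes next to the set on the chromosomes were looked at for a shared difference. Within 500 kb of Isl1 and of Eya1 no other listed gene was found. Of the 5 listed neighbours of Eya4 the likelihood ratio test called 0, and their log2 fold changes ran from -0.34 to 0.17, with Tcf21, a factor of epicardial and pharyngeal mesoderm, at 0.06. Slc2a12 was the neighbour whose groups did not overlap, at 2.78 to 3.22 CPM against 2.14 to 2.63 CPM, in the opposite direction to Eya4. Near Six2 there were 3 listed genes (-0.20 to 0.07), near Six4 7 (-0.09 to 0.13) and near Eya3 24 (-0.48 to 0.17), and the test called 0 in each. Near Eya3, Smpdl3b was lower without overlap (4.24 to 6.35 against 2.98 to 4.02 CPM), as were 3.9% of all genes. The annotation places Gm22616 and Gm37444 inside Eya1 and Gm24655 inside Eya4, none of them listed in the table, and the sources used here do not state whether strand was used in counting.

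Other partners of the Six-Eya complex were mostly not listed. Of 16 names of the PAX-SIX-DACH families, 4 were in the table. Six5, another homeodomain factor of the family, had a mean of 43.2 ± 3.16 CPM (SD, n = 4) under the control label and 38.8 ± 3.09 CPM under the mutant label (log2 fold change -0.15, SE 0.08, adjusted p = 0.467 with limma). Dach1, a corepressor in this network, had means of 16.6 ± 2.35 and 18.4 ± 2.60 CPM (0.14, SE 0.13, adjusted p = 0.641 with limma). None of the 4 was called by limma, either edgeR test or DESeq2, and in all 4 the groups overlapped. DESeq2 gave no adjusted p for Pax6, a gene of this list. Their median log2 fold change was 0.00.

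Of 21 LIM factors and cofactors that could act with Isl1, 12 were listed, 8 of them with a fold change above 0 and 4 below (median 0.10). All were uncalled by limma, the edgeR tests and DESeq2, and 3 had an unadjusted p under 0.05 with limma, all higher (Lmo1, Lmo2 and Rlim). At that level 5.45% of all genes were higher and 6.62% lower. DESeq2 gave no adjusted p for Lmo1. Ldb1, the cofactor that LIM-homeodomain proteins bind, was present at 204 ± 13.9 and 201 ± 13.4 CPM (log2 fold change -0.02, SE 0.07, adjusted p = 0.908 with limma). Lmo1 was the gene of this list whose groups did not overlap, at 1.002 to 1.37 CPM against 1.43 to 2.52 CPM. Over all genes 3.2% were higher without overlap.

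Second heart field genes were split evenly between the directions. Of 32 factors and signals 24 were listed, 12 with a fold change above 0 and 12 below, with a median of 0.00. Limma called 0 of them (0% of all genes). At an unadjusted p under 0.05 there were 4 higher and 1 lower (5.45% and 6.62% of all genes). The likelihood ratio test called 1, Nkx2-5, lower (0.554% of all genes). Without overlap 3 were higher and 1 lower, beside 3.2% and 3.9% of all genes. Nkx2-5, a homeodomain factor of cardiac muscle and its progenitors, ran from 92.5 to 130 CPM under the control label and from 65.2 to 83.0 CPM under the mutant label (log2 fold change -0.46 in that fit, adjusted p = 0.0247 with edgeR's likelihood ratio test and Benjamini-Hochberg adjustment, 0.228 with limma). Leaving out control replicate 2 or 3, or mutant-labelled replicate 2 or 3, ended that call (adjusted p of 0.0655 to 0.144 with the likelihood ratio test), and leaving out any of the other 4 libraries did not. The groups did not overlap either for Osr1 (4.54 to 8.59 against 8.96 to 12.4 CPM), a factor of lateral mesoderm, or Jag1 (89.0 to 102 against 104 to 121 CPM), a Notch ligand, both higher. These 2 genes, like Lmo1, Myocd, Slc2a12 and Smpdl3b, are named after their values were seen. DESeq2 called Nkx2-5, Osr1 and Jag1, with adjusted p-values of 0.0148, 0.0397 and 0.0439, beside 1.31% of all genes called in either direction.

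Tbx1, which acts with Isl1 in the pharyngeal second heart field, was measured at 2.45 ± 0.946 and 3.81 ± 0.857 CPM (log2 fold change 0.58, SE 0.24, adjusted p = 0.388 with limma), with overlap. Fgf10, a growth factor reported downstream of Isl1 and Tbx1, was at 3.50 ± 1.176 and 3.98 ± 0.592 CPM (0.20, SE 0.21, adjusted p = 0.70 with limma). Fgf8 was not listed. Mef2c, a muscle factor with an Isl1-dependent enhancer, was at 107 ± 13.6 and 105 ± 5.17 CPM (-0.02, SE 0.09, adjusted p = 0.939 with limma). Of 15 genes reported as targets of Isl1 or of Six-Eya, a list that shares Fgf10, Mef2c, Bmp4 and Hand2 with the former, 9 were in the table, 3 with a fold change above 0 and 6 below (median -0.06). None of them was called by limma, the edgeR tests or DESeq2, and 1 had groups that did not overlap, Myocd, a cofactor of muscle genes, at 48.9 to 59.4 CPM against 38.7 to 47.2 CPM. Over all genes 3.9% were lower without overlap.

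**Figure D5:**
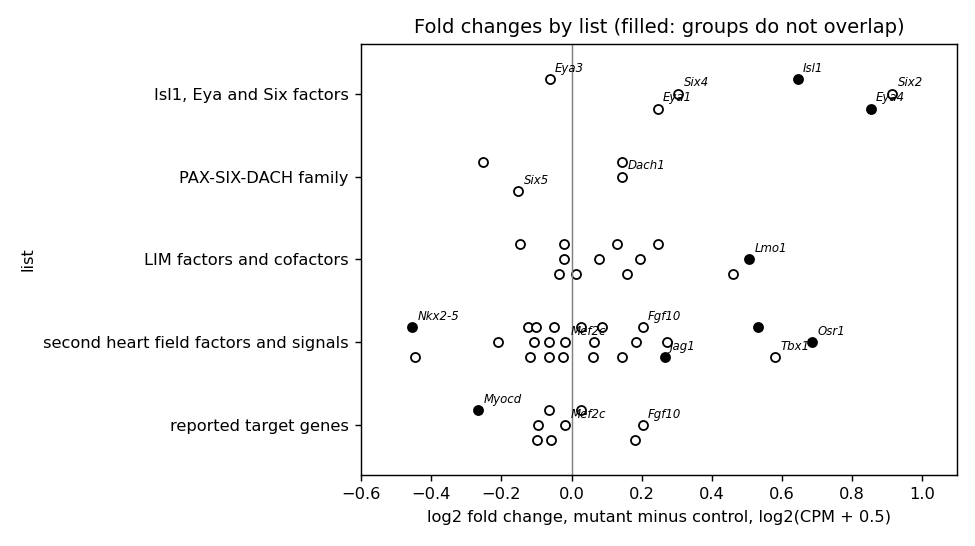
Log2 fold change, mutant-labelled minus control-labelled, on the log2(CPM + 0.5) scale (x axis), of the 6 genes and of the listed genes of each pathway list (y axis), 1 point per gene. Filled points are genes whose groups did not overlap. The medians of the lists are -0.06 to 0.10, beside 0.47 for the 6 genes.

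Markers of OFT tissue were present. All 6 markers each of smooth muscle (summed level 2287 to 2691 CPM under the control label against 2244 to 2734 CPM), endocardium (667 to 791 against 665 to 742 CPM) and cushion mesenchyme (3278 to 3586 against 3018 to 3840 CPM) were listed. All 10 cardiomyocyte markers had a fold change below 0, and their summed level ran from 24764 to 29185 CPM under the control label and from 19538 to 23379 CPM under the mutant label. Of the 10, 7 were lower without overlap, the likelihood ratio test called 4 lower and DESeq2 5. Over all genes these shares were 3.9%, 0.554% and 0.999%. The likelihood ratio test called a further 0.178% of all genes higher. In bulk tissue, fewer cells of a type and less RNA per cell cannot be told apart. Of the neuron markers, whose cells can also use Isl1, 6 of 10 were listed, with sums of 45.5 to 57.5 against 54.6 to 64.6 CPM. The 6 listed were split, 3 with a fold change above 0 and 3 below (Tubb3, Nefl and Nefm), with a median log2 fold change of -0.04. Of the 6, 2 were higher with no overlap between the groups and 0 lower, beside 3.2% and 3.9% of all genes. Among the 6 neuron markers Stmn2, named after its values were seen, was called higher by the likelihood ratio test (10.2 to 15.5 against 15.9 to 24.6 CPM). The neuronal factor Phox2a was not listed. Neural crest and glia markers, 4 of 6 listed, summed to 123 to 163 against 81.6 to 116 CPM. Of these 4, 3 had a fold change below 0, and Ednrb, named after its values were seen, was called lower by the likelihood ratio test (41.3 to 83.5 against 32.8 to 42.6 CPM, log2 fold change -0.69). Pharyngeal arch mesenchyme markers, 7 of 12 listed, summed to 121, 125, 133 and 142 CPM in control-labelled replicates 1 to 4. In mutant-labelled replicates 1 to 4 the sums were 130, 158, 159 and 157 CPM. Of the 7, 6 had a fold change above 0 and 1 below, with a median log2 fold change of 0.19. Without overlap 1 was higher (Osr1) and 0 lower, the likelihood ratio test called 0 and DESeq2 called 1. Of 10 markers of pharyngeal endoderm and epithelium only Krt8 and Krt18 were listed, and Foxa2, Nkx2-1 and Epcam were not. Of 8 skeletal muscle progenitor markers Tcf21 alone was listed.

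A kidney list was looked at because of Six2. Of 8 nephrogenic mesenchyme markers 3 were listed (Sall1, Cited1 and Osr1), and Pax2, Pax8 and Gdnf were not. A sum of so few markers cannot show whether a library held kidney tissue, which was not tested. The sum of the list in mutant-labelled replicate 1, 150 CPM, had rank 5 from the highest. In this library the summed erythroid markers were second highest (3592 CPM against 1139 to 3733 CPM elsewhere), the neuron sum was the third highest (56.9 CPM), and the sums of endocardium, cushion mesenchyme, epicardium and macrophages were the lowest of the 8. The part that tissue composition has in the values of Isl1, Eya4 and Six2 was not tested.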

How the data were processed

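RNA-seq libraries were made from poly(A) RNA of E11.5 OFT, 4 per genotype. Per the methods of the study and the labels, the authors trimmed reads with cutadapt 1.18, quantified genes with RSEM 1.2.3 on GRCm38 with Ensembl genes, and scaled them with edgeR 3.32.1. The deposited values are CPM per gene, normalized by the authors, for 14608 genes, each at 1 CPM or more in at least 4 libraries. 0 columns were left out. All values were whole multiples of 1 read (tolerance 0.01), worth 0.0325 to 0.0948 CPM, and whole reads were recovered from them (100% of values). The library with 10669420 reads is the least precise, and the others held 21064242 to 30469165. Depth limits Eya1 and Six2 most.

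Fold changes came from limma 3.58.1 (R 4.3.3) on log2(CPM + 0.5) over all genes and 8 libraries, with Benjamini-Hochberg adjustment over the 14608 genes and a two-sided threshold of 0.05. As alternatives, edgeR 4.0.16 (likelihood ratio and quasi-likelihood) and DESeq2 1.42.0 were run on the recovered reads, the likelihood ratio test being the closest to the generalized linear model of the study. Other pseudocounts (1 and 0.1), a mean of at least 5 CPM, DESeq2 size factors, the replicate number as a block and leaving out each library were also tried, and the fits were tested on simulated data. Libraries are separate samples by their labels, and p-values measure the spread between them alone.

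The set and the lists were chosen with earlier results of these data known. Named beside the set are Six5, Dach1, Tbx1, Fgf8, Fgf10, Mef2c, Ldb1 and Tcf21, up to 3 genes per pathway list called by limma (or, with none, by the likelihood ratio test), the 3 genes with the highest r for Isl1, Eya4 and Six2, the 10 genes with the largest ratio in mutant-labelled replicate 1, and Gata6 and Mib1. Exon lengths, positions and overlaps came from GENCODE M21 (GRCm38), and promoter windows from RefSeq. Protein sequences were not used here, and some genes of the lists are not reported here. Descriptions used Python 3.11.15, numpy 2.4.6, pandas 2.3.3 and matplotlib 3.10.9.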

Additional observations from a re-analysis of the deposited data

Results flagged for a closer look

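The highest and lowest library of each group of 4 was compared with its nearest neighbour, as a share of the group's range in CPM, and shares above Dixon's 95% limit for 4 samples were collected. Of 68 groups (34 genes), 15 passed, where chance gives about 1 in 20 groups. In the set, the shares were 0.948 for Six2 and 0.854 for Isl1, both with mutant-labelled replicate 1 highest, and 0.83, just past the limit, for Eya1, with control replicate 4 highest. Isl1 stayed without overlap when that library was left out, while the Six2 fold change fell from 0.91 to 0.28.

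Of the 15, 10 lay in mutant-labelled replicate 1. Besides Isl1 and Six2 these were Gli1 (0.957), Irx1 (0.951), Lix1 (0.906), Rspo2 (0.898), Mycl (0.892), Ptch1 (0.874), Cldn11 (0.859) and Edn3 (0.855), all with this library highest. Most of these genes were picked for their ratio in that library, so their shares follow from that choice.

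In other libraries, Nkx2-5 had a share of 0.937 (mutant-labelled replicate 2 lowest), Lmo1 0.887 (control replicate 4 lowest), Edn3 0.838 (control replicate 3 lowest) and Ptch1 0.836 (control replicate 1 highest).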

How the results depend on the processing

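With limma, 0 genes were called (1763 at an unadjusted p under 0.05), and 0 under every alternative run with it, leaving out each library in turn included, and with the quasi-likelihood test of edgeR also 0. The likelihood ratio test called 107 genes (0.732% of all) and DESeq2 192 (1.31%). Of the 45 listed pathway genes, limma called 0, the likelihood ratio test 1 and DESeq2 3, which gave no adjusted p for Pax6 or Lmo1. Leaving out 1 library at a time, chosen as an alternative for the likelihood ratio test after seeing the data, gave 24 (without control replicate 3) to 209 calls (without control replicate 4). Isl1 was called in all 8 of those fits. Eya4 was called in 7 and lost its call without control replicate 3 (adjusted p = 0.073, edgeR likelihood ratio test, range 0.000398 to 0.073). Both genes were chosen with calls of this contrast known, and the fits share libraries. Their calls here are a description and carry no weight of their own.

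Over the 100 values of the set under other settings, all moved by less than the spread between libraries, and the sign changed in 1, that of Eya1 without mutant-labelled replicate 1. That spread (pooled SD within groups, log2 scale) was 0.96 for Six2, mutant-labelled replicate 1 included, and 0.50 for Eya1. For these genes the rule could hardly fail, so staying within it does not show a steady value. The log2 fold change ran from 0.52 to 0.70 for Isl1, from 0.68 to 0.98 for Eya4 and from 0.28 to 1.56 for Six2. Eya1 and Six2 have no value where a mean of at least 5 CPM was required. With 1 library left out, fold changes near 0 changed sign for Mef2c (-0.073 to 0.060), Ldb1 (-0.068 to 0.019) and Tcf21 (-0.058 to 0.16). The cause of these changes was not tested.

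Same-numbered libraries did not deviate together (correlations of -0.19 to 0.03 over genes), so the shared numbers were not taken to pair the samples. With the replicate block 0 genes were called, as without it. Depth limits Eya1 and Six2, which rest on 12 to 93 reads in each library apart from Six2 in mutant-labelled replicate 1.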
